A study of Mus musculus with 2 samples.

Results

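Droplets that receive no cell still capture RNA that floats in the suspension, and the barcodes described here are the near-empty droplets of 2 single-cell libraries. They were chosen by their count of unique molecular identifiers (UMIs; 1 UMI stands for 1 captured molecule), from 100 to 500 per barcode. The rule kept 59886 of 1408944 listed barcodes in the control library and 62449 of 1400093 in the sonKD library. Their summed UMIs are called free RNA below. They were set against the barcodes of the same library with at least 2500 UMIs, 1000 or more genes and no more than 10% of UMIs from mitochondrial genes, called cells, of which there were 4978 in control and 2731 in sonKD.

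Both libraries came from E14 mouse embryonic stem cells of 129/Ola background, a feeder-independent line, grown on gelatin in serum with leukaemia inhibitory factor. The control group received control siRNA and the sonKD group siRNA against Son, by lipofection 24 h after seeding. Son encodes a large RNA-binding scaffold protein of nuclear speckles that takes part in splicing. Cells of both groups were detached with trypsin 24 h after transfection, frozen, thawed, sorted as 7-AAD-negative and loaded on the 10x Genomics Chromium with 3' v3 chemistry. Each group held 1 library, so no difference has a replicate check, no test was made, and knockdown and preparation cannot be told apart.

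In background, free RNA in such suspensions comes from cells that lyse or leak before they are encapsulated, so it mixes the transcripts of many cells. Spliced mRNA in the cytosol is released when the plasma membrane breaks, whereas nuclear transcripts stay with the nucleus and mitochondrial transcripts lie inside a further pair of membranes. Droplet studies measure free RNA chiefly to subtract it from the cells.

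The near-empty barcodes formed a single narrow peak. The median was 305 UMIs and 222 genes per barcode in control (quartiles 276 and 336 UMIs) and 296 UMIs and 209 genes in sonKD (268 and 328). In bins of 20 UMIs, that from 280 to under 300 held 10317 control and 11378 sonKD barcodes, the next bin held 10317 and 10326, and 94.2% and 94.1% of the near-empty barcodes lay from 220 to under 400 UMIs. Few barcodes lay on either side of the peak, with 155 in control and 192 in sonKD at 50 to 99 UMIs and 1506 and 932 above 500 and below 1000. In all, free RNA held 18361838 UMIs in control, 25.8% of that library, and 18646368 UMIs in sonKD, 30.9% of it. Cells held 57.6% and 53.1%, at a median of 7737.5 and 11612 UMIs per cell.

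**Figure D1:**
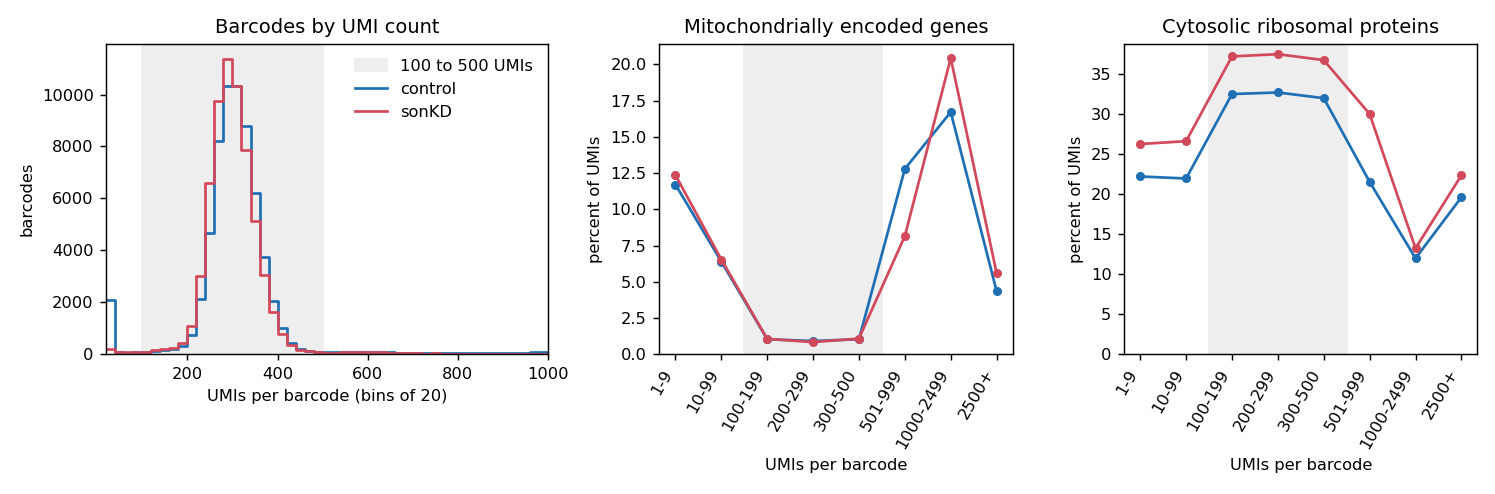
Barcodes per bin of 20 UMIs (left), and the percent of UMIs from mitochondrially encoded genes (middle) and from cytosolic ribosomal protein genes (right) for barcodes grouped by UMI count, in control (blue) and sonKD (red), with 100 to 500 UMIs shaded. The peak of sonKD is at 280 to under 300 UMIs, that of control is shared by this bin and the next at 10317 barcodes each, and the shaded classes have the lowest mitochondrial and the highest ribosomal protein shares of the classes shown.

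The near-empty barcodes held the marker transcripts of the cultured cells. The 16 stem cell markers examined summed to 12598 counts per 1000000 UMIs (CPM) in control free RNA and 13193 CPM in sonKD free RNA, against 9769 and 10454 CPM in cells, and none was at 0. Most of this was Dppa5a, a small RNA-binding protein gene of pluripotent cells, at 9141 and 10241 CPM in free RNA. In cells Dppa5a was at 5027 and 6075 CPM, and the higher sum in free RNA rested on it. Of 15 markers with enough UMIs to be measured, 12 were lower in free RNA than in cells in each library. Markers of other cells summed to less. The 12 of primitive endoderm came to 178 and 175 CPM, of which the matrix protein gene Sparc made up 166 and 163 CPM, and in cells to 302 and 295 CPM. Trophectoderm and keratin genes summed to 59.3 and 55.3 CPM, neuroectoderm genes to 47.5 and 44.5 CPM, and mesoderm genes to 44.4 and 29.2 CPM. The 12 fibroblast genes summed to 5.17 and 4.88 CPM, with 5 of the 12 at 0 in each library, and 8 blood genes to 0.98 and 0.70 CPM, with 5 and 7 at 0. The variance of a gene's share between near-empty barcodes was compared with that of random draws from 1 common pool, for which the ratio is 1. It was 1.005 in both libraries for Actb (cytoskeletal actin), 1.01 and 0.999 for Pou5f1 (the pluripotency factor OCT4), 1.05 and 1.07 for the nuclear RNA Malat1, and 1.26 and 1.25 for all cytosolic ribosomal protein genes together. For mitochondrial genes it was 5.42 and 7.84. These ratios cannot be ranked against each other, because that of a gene with few UMIs per barcode stays near 1: Malat1 was seen in 31.4% and 25.6% of near-empty barcodes and ribosomal protein genes in 100%. In a tail of 134 control (0.224%) and 306 sonKD (0.490%) near-empty barcodes, over 10% of UMIs were mitochondrial.

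The mitochondrial share rose toward the upper edge of the UMI range. Just inside, from 100 to under 110 UMIs, the mitochondrial share was 0.784% in control and 0.969% in sonKD, and above 490 and up to 500 UMIs it was 4.29% and 4.0%. Just outside, it was 1.12% and 1.70% at 90 to 99 UMIs and 7.95% and 5.32% above 500 and up to 510. These edge bins held 32 to 54 barcodes each. At the lower edge they held only 3037 to 5674 UMIs, so counting error in their shares is large. Ribosomal protein shares there were 29.9% in control and 37.5% in sonKD inside, and 31.5% and 36.8% outside. Of the barcodes counted as near-empty, 1075 had the same sequence in both libraries (1.80% of control, 1.72% of sonKD). A further 44 near-empty control barcodes were cells in sonKD, and 107 near-empty sonKD barcodes were cells in control.

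Mitochondrially encoded transcripts, which encode core subunits of the respiratory chain, were scarce in free RNA. They made up 0.982% of free UMIs in control (95% interval 0.977 to 0.986) and 0.961% in sonKD (0.957 to 0.966), against 3.82% and 4.19% in cells. All intervals are exact and cover counting error only. No mitochondrial UMI was found in 10.1% of control and 14.4% of sonKD near-empty barcodes. The cell rule itself caps the mitochondrial share, and without that cap the cell values were higher, at 4.34% and 5.59%. Among the 13 mitochondrial genes, 12 had a mean of at least 20 CPM over the 4 summed profiles (free RNA and cells of each library). All 12 were at least 2-fold lower in free RNA in both libraries, against 36.1% of all genes that reached this mean. mt-Nd1, a complex I subunit, had the lowest ratio, at 439 CPM in control free RNA against 2207 CPM in cells and 420 against 2607 CPM in sonKD. mt-Nd3 and the ATP synthase subunit mt-Atp6 lay nearest to cells, with log2 ratios of free RNA over cells of -1.57 and -1.64 in control and -1.75 and -1.78 in sonKD. The share was higher on both sides of the peak, at 6.38% and 6.53% for 10 to 99 UMIs, and 12.8% and 8.16% above 500 and below 1000.

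Of the 5057 genes that reached this mean, 42 were at least 2-fold higher in free RNA than in cells in control (0.831% of the genes) and 1869 at least 2-fold lower (37.0%). In sonKD, 33 were higher (0.653%) and 2012 lower (39.8%). The mean includes the cells, so a gene low in free RNA can reach it through its cell values alone. Such genes are among those counted as lower. The median log2 ratio was -0.60 in control and -0.68 in sonKD. Above 0 lay 1383 of the 5057 in control and 1209 in sonKD, a split that depends on the scaling. Trimmed mean (TMM) factors raised every ratio by 0.88 in control and 1.03 in sonKD, and then 1149 genes were higher and 763 lower in control, and 1264 and 825 in sonKD. Values below are on the scale of plain totals and are read against the median of all genes.

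The 2 libraries gave nearly the same order of genes. In both, 29 genes were at least 2-fold higher (0.573%) and 1828 at least 2-fold lower (36.1%), none was called in opposite directions, and 4783 of the 5057 had the same sign. Pearson's r of the log2 ratios was 0.988; its points are genes of the same 2 libraries, not replicates.

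The largest excess in free RNA was that of 2 transcripts of a ribosomal RNA-like locus. Gm42418 (chromosome 17, 39846958 to 39848788, plus strand, GRCm38) is annotated as a noncoding RNA and is known to collect reads of ribosomal RNA. It was at 8668 CPM in control free RNA and 778 CPM in control cells, and at 7390 and 632 CPM in sonKD, which made it 11.1-fold and 11.7-fold higher in free RNA. AY036118 lies within it on the minus strand (39847113 to 39848035) and was at 2650 CPM against 163 CPM in control and 1575 against 129 CPM in sonKD, or 16.3-fold and 12.2-fold higher. The pair overlaps on opposite strands and the use of strand in counting is not given in the sources used here, so the division of UMIs between them is uncertain. AY036118 also shares all of its 3' end sequence, read on its own strand, with another gene.

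Among the 10 genes highest in free RNA were also 3 long ones, of which Lars2 and Cmss1 came next and Cdk8 was the tenth. Cmss1 (a small-subunit rRNA processing factor; 304865 bp) was at 436 CPM in control free RNA and 119 CPM in cells, and at 306 and 115 CPM in sonKD. Lars2 (mitochondrial leucyl-tRNA synthetase; 95740 bp) was at 104 and 29.7 CPM in control and 101 and 26.6 CPM in sonKD. Cdk8 (a kinase of the Mediator complex; 71645 bp) was at 149 and 66.7 CPM in control and 139 and 56.5 CPM in sonKD. Free RNA was above cells in both libraries for all 3. Whether these UMIs came from the spliced transcripts cannot be read from summed counts per gene.

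**Figure D2:**
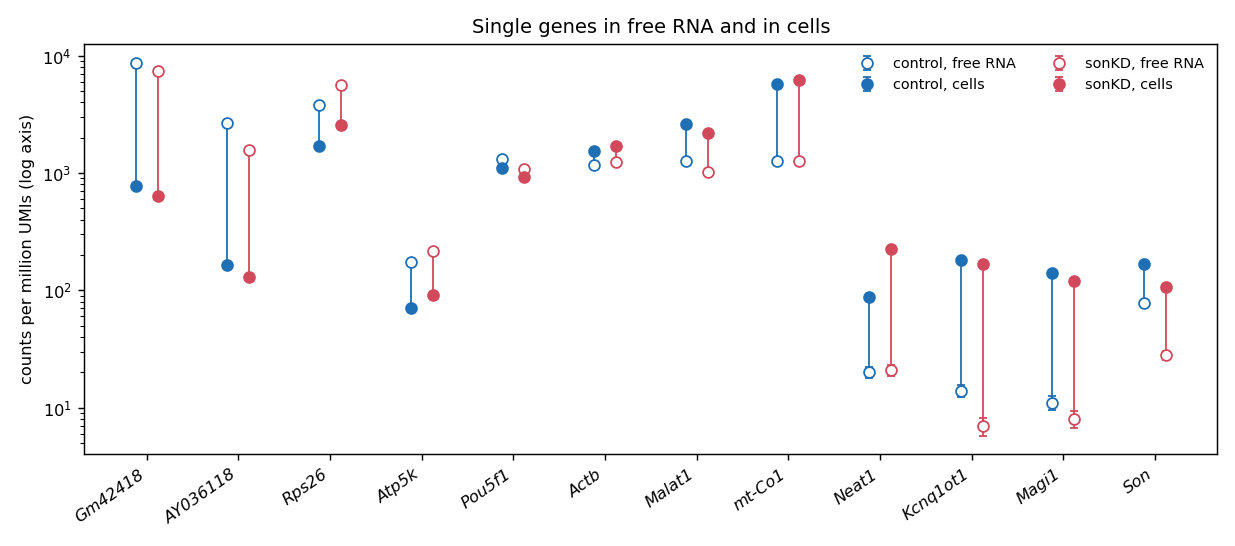
CPM on a log axis for 12 genes in free RNA (open symbols) and in cells (filled symbols), control in blue and sonKD in red, with exact 95% counting intervals and a line between the 2 values of a library. Open symbols lie above filled ones for Gm42418, AY036118, Rps26, Atp5k and Pou5f1 and below them for the other 7; for Neat1 the filled sonKD symbol stands at 224 CPM while both open symbols stand near 20.7 CPM.

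Transcripts of the protein synthesis machinery made up much of free RNA. Cytosolic ribosomal protein genes took 32.3% of free UMIs in control and 37.1% in sonKD, against 20.1% and 23.4% in cells. Of the 79 measured, all 79 lay above 0 in control, with a median log2 ratio of 0.72 in control and 0.67 in sonKD. In each library 5 of the 79 were at least 2-fold higher, against 0.831% and 0.653% of all genes. Rps26, of the small subunit, had 3820 CPM in control free RNA, 1711 CPM in control cells, 5598 CPM in sonKD free RNA and 2540 CPM in sonKD cells. Rpl23a, of the large subunit, had 1868, 829, 2135 and 998.5 CPM in the same order. Translation factors lay near 0, with medians of -0.06 and -0.07 over 34 genes, both above 0 with TMM factors and with totals that leave out mitochondrial and ribosomal protein genes. Their members ranged from Eif2s2 (the beta subunit of eIF2), at 1.08 in both libraries, to the scaffold Eif4g1, at -1.85 and -2.19.

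Many ribosomal protein mRNAs begin with a run of pyrimidines, the terminal oligopyrimidine motif, so starts were searched for 3 short words. The word CTTTC, the word CTTTT and the further word CCTTT, all of which overlap, were sought on the sense strand from 30 bases before to 20 bases after the annotated start (RefSeq promoter table, GRCm38.p6). At least 1 was present in 38.7% of the ribosomal protein genes with an entry (24 of 62), in 13.5% of all measured genes and in 16.0% of all promoters in the table. Their reverse complements were present in 14.5% of the ribosomal protein genes and 11.6% of measured genes. A word was present in 8 of the 19 genes with an entry among the 29 that were at least 2-fold higher in both libraries (42.1%), a set that includes ribosomal protein genes, and in 14.2% of the lower ones. Among the ribosomal protein genes the median log2 ratio in control was 0.745 for the 23 measured genes with a word and 0.752 for the 35 without. Among translation factors it was 0.26 for the 4 with a word and -0.23 for the 21 without. A word could lie before the annotated start, outside the transcript, and pyrimidine runs other than these words were not counted. The starts of 4 genes with a word, and of Rps26, which had none, are shown from 20 bases before to 10 bases after the start. Words are in capitals, and the 4 were picked as examples after the search. The marked stretch of Rps25 lies before the annotated start, and the Rps26 stretch ends in a pyrimidine run that holds none of the words.
Rps25, chr9:44407694-44407723, plus strand: tCCTTTTtttccgacatcttagcgaggctg
Rplp2, chr7:141447631-141447660, plus strand: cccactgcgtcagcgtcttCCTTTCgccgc
Rpl38, chr11:114668560-114668589, plus strand: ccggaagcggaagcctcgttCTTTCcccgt
Rpl35, chr2:39005122-39005151, minus strand: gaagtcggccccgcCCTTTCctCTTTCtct
Rps26, chr10:128626497-128626526, minus strand: agcgggtcgggcaagccgccggatcctctt

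Nuclear-encoded genes of the mitochondria behaved unlike the mitochondrially encoded ones. The 77 nuclear genes of oxidative phosphorylation had a median log2 ratio of 0.78 in control and 0.73 in sonKD. At least 2-fold higher were 14 and 8 of the 77, against 0.831% and 0.653% of all genes. Atp5k, a small ATP synthase subunit, was at 174 CPM in control free RNA, 70.6 CPM in control cells, 217 CPM in sonKD free RNA and 91.1 CPM in sonKD cells. The cytochrome c oxidase subunit Cox7b was at 1202, 517, 1452 and 644 CPM in the same order. The mRNAs of mitochondrial ribosomal proteins had medians of 0.36 and 0.23 over 77 genes, with 65 above 0 in control. Of the 77 nuclear oxidative phosphorylation genes, 74 in control and 75 in sonKD lay above the all-gene median, and of the 12 mitochondrially encoded genes none did.

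Medians of proteasome genes and of small nucleolar RNA host genes also lay above those of all genes. Proteasome genes had medians of 0.28 and 0.14 over 36 genes, with Psma7, a subunit of the catalytic core, at 1.13 and 1.06. Small nucleolar RNA host genes, whose spliced RNAs are exported and decayed on ribosomes, had medians of 0.51 and 0.49 over 11 genes, with Snhg1 at 0.81 and 0.69. Chaperone and endoplasmic reticulum (ER) folding genes were spread around 0. Cytosolic chaperones had medians of -0.19 and -0.23 over 21 genes and ER genes 0.04 and -0.11 over 22. The chaperone medians were positive with TMM factors, and the ER median in control turned negative once mitochondrial genes were left out of the totals. The ER median in sonKD turned positive with totals that leave out mitochondrial and ribosomal protein genes, and with TMM factors, at 0.92. Genes of secreted and surface proteins had medians of -1.09 in both libraries over 30 genes. In each library 16 of them were at least 2-fold lower, against 37.0% and 39.8% of all genes. Lamc1, a laminin chain, was lowest of the 30, at -2.98 and -3.26. Minus the median of genes in the same decile of gene span, the medians of this list were -0.35 and -0.36.

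Nuclear RNAs were the most depleted group. All 10 measured nuclear long noncoding RNAs were at least 2-fold lower in free RNA in both libraries, against 36.1% of all genes. Their medians were -2.69 and -3.07. Kcnq1ot1, the long imprinted antisense transcript that silences its neighbours (chromosome 7, 143203458 to 143296549), was at 13.9 CPM in control free RNA and 182 CPM in control cells, and at 6.92 and 168 CPM in sonKD. It was 13.1-fold and 24.3-fold lower in free RNA. Meg3, an imprinted noncoding RNA, was at 19.8 and 198 CPM in control and 14.1 and 192 CPM in sonKD. Malat1, the abundant RNA of nuclear speckles, was the least depleted of the 10, at 1260 and 2634 CPM in control and 1019 and 2192 CPM in sonKD.

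Messenger RNAs of nuclear regulators followed. All 24 measured genes of chromatin and nuclear export regulators with long transcripts were at least 2-fold lower in both libraries, against 36.1% of all genes. Their medians were -2.10 and -2.56. All genes in the longest decile of transcript length (at least 6624 bases) had medians near these, at -2.13 and -2.43. Arid1b, of the BAF remodelling complex, was at 5.01 and 47.8 CPM in control and at 3.65 and 41.8 CPM in sonKD. Nuclear speckle scaffold and SR protein genes had medians of -0.83 and -1.06 over 21 genes, of which the control value was 0.05 with TMM factors. G2/M genes had medians of -1.05 and -1.20 over 49, with the proliferation marker Mki67 at -2.61 and -3.45. Between both ends, S phase genes had medians of -0.75 and -0.86 over 33 genes, hnRNP genes -0.69 and -0.86 over 24, glycolysis genes -0.63 and -0.52 over 14, and integrated stress response genes -0.60 and -0.76 over 13. Histone genes had -0.60 and -0.41 over 8, cytoskeleton genes -0.42 and -0.37 over 30, and p53 targets -0.37 and -0.45 over 14. These 7 pairs of medians were near those of all genes and were positive with TMM factors. Minus the median of genes in the same decile of gene span, all 7 pairs were below 0. They went from -0.04 and -0.11 for p53 targets to -0.92 and -0.56 for histone genes, with hnRNP genes at -0.52 and -0.47.

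**Figure D3:**
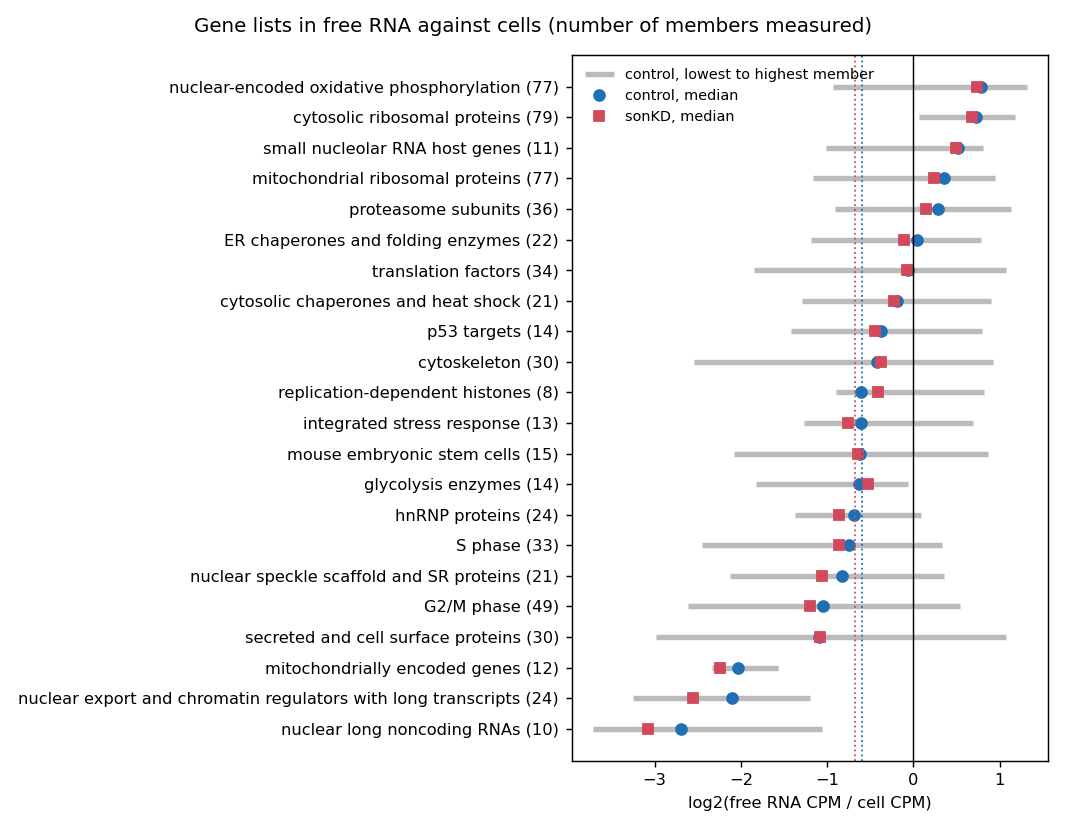
Log2 ratio of free RNA over cells for 22 gene lists, with the number of members measured in brackets. Dots are medians in control (blue) and sonKD (red), grey bars span the lowest to the highest member in control, and dotted lines mark the median of all 5057 genes. Lists of oxidative phosphorylation and ribosomal protein genes lie at the top, and mitochondrially encoded genes, long chromatin regulators and nuclear long noncoding RNAs at the bottom.

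The pluripotency genes were spread over a wide part of this range. Dppa5a was at 9141 CPM in control free RNA and 5027 CPM in cells, and Pou5f1 at 1321 and 1104 CPM. Nanog was at 119 and 170 CPM, Sox2 at 168 and 352 CPM, and the nuclear receptor gene Esrrb at 31.8 and 134 CPM. In sonKD the log2 ratios of free RNA over cells were 0.75 for Dppa5a, 0.23 for Pou5f1, -0.54 for Nanog, -1.15 for Sox2 and -2.24 for Esrrb, in the same order as in control. Of 15 measured markers, 5 in control and 6 in sonKD were at least 2-fold lower, near the shares of all genes (37.0% and 39.8%), and none was at least 2-fold higher. Their medians of -0.62 and -0.65 were positive with TMM factors. Minus the median of genes in the same decile of gene span they were -0.58 and -0.60.

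The property that ran most closely with the ratio was length. Spearman's rho of the log2 ratio with gene span (from first to last annotated base) was -0.72 in control and -0.70 in sonKD across 5057 genes. With transcript length it was -0.73 and -0.74, taking 1 transcript per gene, which is not always the longest. These are descriptions across genes, which share both libraries. The decile of genes with the shortest span (at most 4160 bp) had a median ratio of 0.39 in control and 0.27 in sonKD, and the decile with the longest (at least 118230 bp) -2.32 and -2.60. Transcript length still ran with the ratio among genes of similar span, with a mean rho within deciles of -0.51 and -0.52. For GC content rho was 0.19 and 0.18, and within deciles of span it was -0.089 and -0.090. The 29 genes higher in both libraries had a median span of 5773 bp and a median transcript of 914 bases, against 65193 bp and 4501.5 bases for the 1828 lower ones and 23695 bp and 2662 bases for all.

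Single genes at the low end were nearly all long. Grip1 (a synaptic scaffold; 633432 bp) was at 2.89 CPM in control free RNA and 38.4 CPM in cells, and at 2.74 and 43.1 CPM in sonKD. Magi1 (a junction scaffold; 608463 bp) was at 11 and 141 CPM in control and 7.94 and 119 CPM in sonKD. Klf12, Auts2, Lpp, Rasal2, Dennd1a, Rora and Ptprg, with spans from 277414 to 1106012 bp, had log2 ratios from -3.48 to -3.61 in control and from -3.80 to -4.35 in sonKD. After subtraction of the median of the same decile of gene span, the medians were -2.42 and -2.51 for mitochondrially encoded genes and -1.46 and -1.56 for nuclear long noncoding RNAs. They were 0.43 and 0.52 for cytosolic ribosomal proteins, 0.71 and 0.74 for nuclear oxidative phosphorylation genes, and -0.36 and -0.51 for the long chromatin regulators. This subtraction does not take out transcript length, so part of these values can be that of transcript length. Before it, all genes in the shortest decile of transcript length had medians of 0.55 and 0.45. Those in the longest had -2.13 and -2.43. Introns cannot be set apart in these data, because the treatment of intronic reads is not given in the sources used here.

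**Figure D4:**
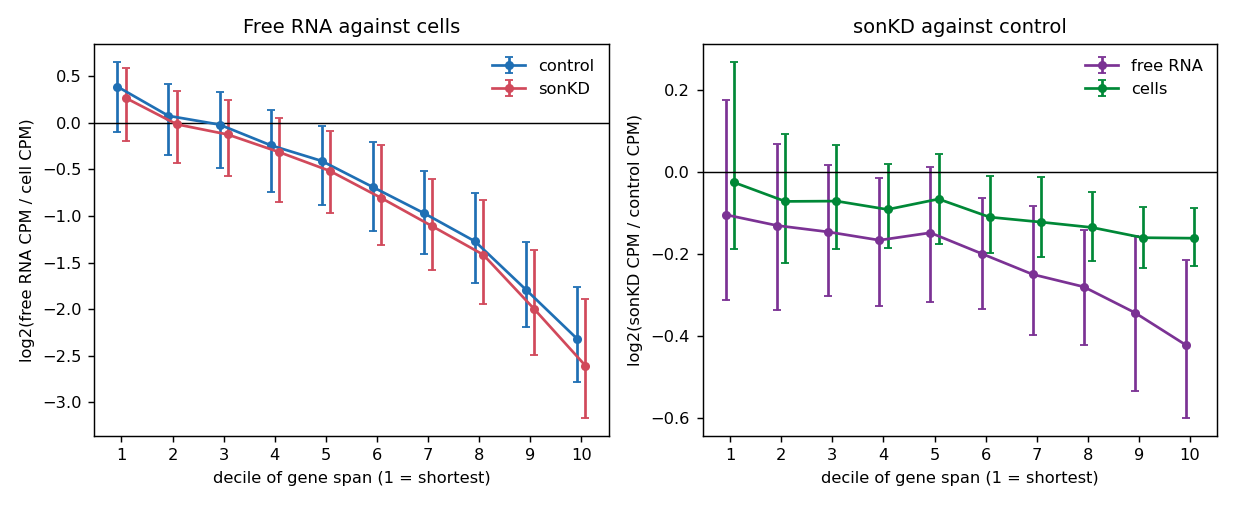
Median log2 ratio by decile of gene span (1 shortest, 10 longest; bars show quartiles of genes), for free RNA over cells in control and sonKD (left) and for sonKD over control in free RNA and in cells (right). The left medians go from 0.39 and 0.27 down to -2.32 and -2.60, and the right ones from -0.10 to -0.42 in free RNA and from -0.02 to -0.16 in cells.

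The targeted gene was examined first in the comparison of sonKD with control. Son (chromosome 16, 91647506 to 91679221, plus strand) had 1416 UMIs in control free RNA, or 77.1 CPM, and 520 UMIs in sonKD free RNA, or 27.9 CPM. In cells its level was 169 CPM for control and 106 CPM for sonKD. Free Son RNA in sonKD was thus at 36.2% of control and that of cells at 62.7%. The log2 ratio was -1.47 (-1.62 to -1.32) in free RNA and -0.67 (-0.73 to -0.61) in cells, a difference of -0.79 (-0.95 to -0.64), and TMM factors gave -1.25 in free RNA. Son overlaps Donson, and Kcnq1ot1 overlaps Kcnq1, on the opposite strand, and the use of strand in counting is not given in the sources used here. Within each library Son was lower in free RNA than in cells, 2.19-fold in control and 3.79-fold in sonKD.

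Across genes, 14 were at least 2-fold higher in sonKD free RNA (0.277%) and 57 at least 2-fold lower (1.13%), with a median log2 ratio of -0.21. In cells, 16 were higher (0.316%) and 1 was lower (0.0198%), with a median of -0.11. TMM factors raised the ratios by 0.22 in free RNA and by 0.075 in cells, after which 30 genes were higher and 22 lower in free RNA, so that 57.7% of calls were higher instead of 19.7%. Without mitochondrial and ribosomal protein genes in the totals, 21 were higher and 37 lower, or 36.2% higher. The ratios of free RNA spanned more than those of cells, with 1.01 between the 5th and 95th percentiles against 0.68, and counting intervals were also wider, with a median width of 0.32 against 0.17.

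The genes lower in sonKD cells were lower still in sonKD free RNA. Of 103 genes with a log2 ratio of at most -0.5 in cells, 95 had a lower ratio in free RNA, the median was -0.92 in free RNA against -0.60 in cells, and 39 were past 2-fold in free RNA. Among all 5057 genes the free ratio was lower in 4001, so part of this is the shared shift. Ifrd2, an inhibitor of translation, was found at 31 CPM in control free RNA and 8.74 CPM in sonKD free RNA, and at 39.3 and 18.4 CPM in cells. Vars, the valyl-tRNA synthetase, was at 46.0 and 15.3 CPM in free RNA and 131 and 68.0 CPM in cells. Idh2, the mitochondrial isocitrate dehydrogenase, was at 92.0 and 32.1 CPM in free RNA and 111 and 58.1 CPM in cells. Rnaseh2c, a subunit of ribonuclease H2, was at 250 and 81.8 CPM in free RNA and 140 and 79.2 CPM in cells. All 4 were lower in sonKD in both compartments. Amdhd2, Rcor2, Mettl26, Fam173a and Bud23 completed the 10 lowest with Son, at free log2 ratios from -1.40 to -1.62 against -0.75 to -1.0 in cells; Fam173a shares 93.6% of its 3' end sequence with another gene.

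Of 110 genes with a cell ratio of at least 0.5, the median was 0.65 in cells and 0.59 in free RNA, 76 had a lower ratio in free RNA, and 13 were past 2-fold there. They include Neat1, which is described further on. Hist1h2ap, a histone H2A gene, was at 30.8 CPM in control free RNA and 159 CPM in sonKD free RNA, and at 28.3 and 148 CPM in cells. Rpl29, a large-subunit protein gene, was at 16.3 and 67.0 CPM in free RNA and 11.6 and 46.2 CPM in cells. Rps27, Hist1h2ae, Gm10076, Rpl9, Gstp1, Rpl35 and Rps2 had free log2 ratios from 1.36 to 1.87. All of these share 58.3% or more of their 3' end sequence with another gene, and the handling of reads that fit several genes is not given in the sources used here.

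By lists, the sonKD ratio of free RNA was read against its all-gene median of -0.21 and that of cells against -0.11. Ribosomal protein genes had medians of 0.28 in free RNA and 0.35 in cells. In free RNA 6 of 79 were at least 2-fold higher, against 0.277% of all genes. Above 0 there lay 63 of the 79 and 1082 of all 5057 genes. All 8 histone genes measured were above 0 in free RNA, with medians of 0.61 and 0.47. Below 0 in free RNA were 3975 of all genes, all 21 speckle and SR protein genes, with medians of -0.34 and -0.15, and all 24 long chromatin regulators, with -0.49 and -0.21. Above the all-gene median lay 4 of the 21 and none of the 24. Arid1a, a BAF subunit, was the sole member of that list past 2-fold, at 34.7 CPM in control free RNA and 14.9 CPM in sonKD free RNA against 131 and 99.8 CPM in cells. Nuclear long noncoding RNAs had -0.40 and -0.11, and mitochondrially encoded genes 0.00 and 0.18. The signs of the free medians named here were the same under the 4 scalings tried.

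The difference between the 2 ratios, free RNA minus cells, was at most -1 for 3 genes (0.0593%) and at least 1 for none. The gene farthest out was Neat1, the architectural RNA of paraspeckles, nuclear bodies that form beside speckles (chromosome 19, 5824708 to 5845478, minus strand). In cells Neat1 stood at 87.2 CPM for control and 224 CPM for sonKD, 256% of control. In free RNA it was at 19.9 CPM in control (366 UMIs) and 20.7 CPM in sonKD (386 UMIs), 104% of control. The log2 ratio of sonKD over control was 0.05 (-0.16 to 0.26) in free RNA and 1.36 (1.30 to 1.42) in cells, a difference of -1.30 (-1.52 to -1.09). Free Neat1 RNA was therefore 4.38-fold below cells in control and 10.8-fold below in sonKD. The other 2 were Ano3 and Tcf7l2, named after their values were seen, at differences of -1.06 (-1.53 to -0.60) and -1.04 (-1.54 to -0.55), on 124 and 64 UMIs and on 117 and 55 UMIs in control and sonKD free RNA.

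In free RNA the median sonKD ratio went from -0.10 in the shortest decile of gene span to -0.42 in the longest, and in cells from -0.02 to -0.16. Across genes rho with transcript length was -0.43 in free RNA and -0.33 in cells. Kcnq1ot1 had a difference of -0.89 (-1.22 to -0.58) and Mki67 of -0.84 (-1.11 to -0.58). Hmg20b, a chromatin gene of 4433 bp, had -0.83, from 43.6 and 19.8 CPM in free RNA and 47.2 and 38.1 CPM in cells. Camk1d, a calmodulin-dependent kinase gene of 421059 bp, was at 217 and 102 CPM in free RNA and 96.0 and 77.3 CPM in cells, so its excess in free RNA went from 2.27-fold in control to 1.32-fold in sonKD.

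On the opposite side, Zbtb20, a zinc finger repressor gene of 766722 bp, was at 36.4 CPM in control free RNA and 88.4 CPM in sonKD free RNA, and at 96.4 and 125 CPM in cells. Its difference was 0.90 (0.75 to 1.05). The histone gene Hist1h4d was at 24.3 and 61.4 CPM in free RNA and 22.7 and 35.6 CPM in cells, a difference of 0.69 (0.49 to 0.89), and the kinase gene Stk16 had 0.45. Among the reference genes, Malat1 had log2 ratios of -0.31 in free RNA and -0.27 in cells, Pou5f1 -0.29 and -0.27, Nanog -0.18 and -0.15, and Actb 0.09 and 0.14. With TMM factors, those of Nanog were positive in free RNA.

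**Figure D5:**
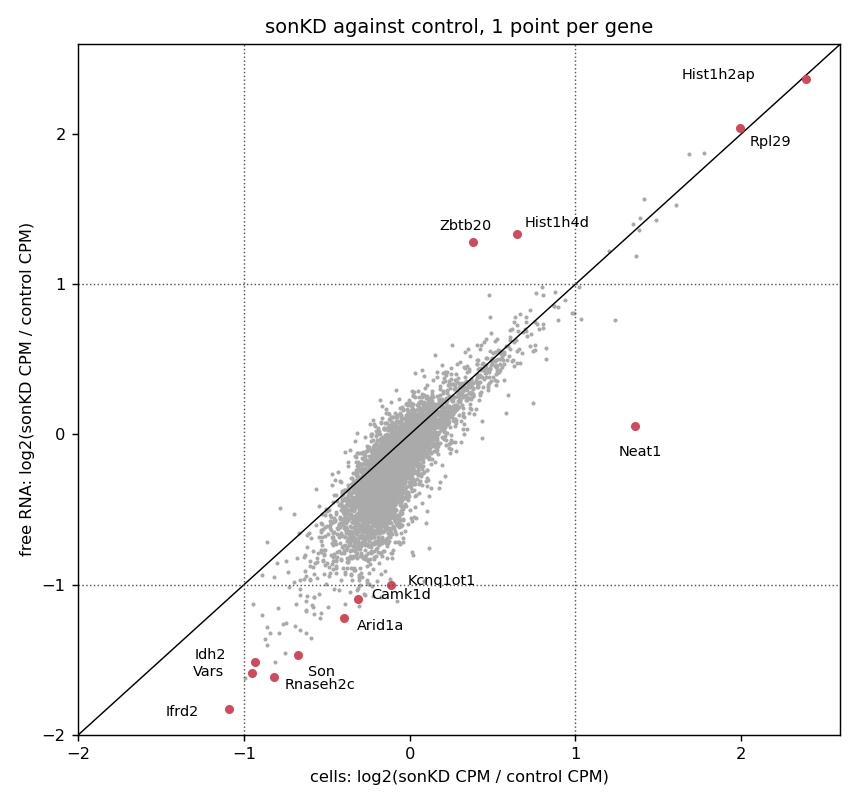
Log2 ratio of sonKD over control in cells (horizontal) and in free RNA (vertical), 1 point for each of 5057 genes, with the line of equal ratios and dotted lines at 2-fold; named genes are in red. Neat1 lies far below the line at 1.36 and 0.05, Son and the genes lower in sonKD lie below it, and Hist1h2ap and Rpl29 lie on it.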

How the data were processed

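Deposited values are raw counts of UMIs for each gene in each barcode, which the authors made with Cell Ranger 7.1.0 on build mm10, per the submitters' processing notes; annotation and intron handling are not given in the sources used here. All barcodes are listed, with 71046373 UMIs in control and 60352438 in sonKD. UMIs were summed over near-empty barcodes and over cells of each library and scaled to 1000000 (CPM). Doublets were not removed. Log2 ratios used a floor of 3 UMIs; a difference of ratios combines both intervals as a root sum of squares. "Called" means at least 2-fold. Gene structure came from GENCODE M21 (GRCm38), matched by gene identifier for all 5057 genes. Transcript length and GC content are of 1 transcript per gene, with APPRIS principal transcripts preferred, then basic ones, then the longest. Ratios and intervals were tested on simulated counts that held counting error only, so variation between barcodes was not covered. Tools were Python 3.11.15 with scipy 1.17.1 and R 4.3.3 with edgeR 4.0.16, the last for TMM factors.

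Groups came from sample titles. The members and gene lists were chosen with earlier results of these data known. Genes named came from the 10 highest and 10 lowest free-over-cell ratios (by the library nearer 0, mitochondrial genes apart), the same for sonKD over control in free RNA and 5 each way for the difference of ratios (by the interval bound nearer 0), from each list the 2 genes lying farthest off the all-gene median per ratio, and 10 reference genes; of the 10 highest in sonKD free RNA, 1 is not reported here. Alternatives changed totals, filters, the UMI range, the cell rule and the pseudocount (0.5).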

Additional observations from a re-analysis of the deposited data

Results flagged for a closer look

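Fam173a and Mettl26, 2 genes of chromosome 17, lay on opposite sides of cells in the 2 libraries. Free RNA was above cells in control, at log2 ratios of 0.295 for Fam173a (617 free UMIs) and 0.369 for Mettl26 (940), and below cells in sonKD, at -0.328 (204) and -0.333 (348). Each interval left out 0, the difference was not tested, and with TMM factors all 4 values were above 0.

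Barcodes from 1000 to under 2500 UMIs, which enter neither free RNA nor cells, had a mitochondrial share of 20.4% in sonKD and 16.7% in control. Free RNA was at 0.961% and 0.982%. The same barcodes had 13.2% and 12% ribosomal protein UMIs, against 37.1% and 32.3% in free RNA, and 6826 and 9277 CPM of Malat1, against 1019 and 1260 CPM. They differed from cells in the opposite direction to free RNA in all 3 measures.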

How the results depend on the processing

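No paired analysis was possible because each group held 1 library, so no test was made. For 13 summary results 164 values were computed under alternatives, of which 107 stayed near the reported value (counts and spreads within 1.5 times, others inside the counting interval), 56 moved and 1 reversed (a value at least 2-fold from 0 that changed sign, so that smaller list medians that turn positive with TMM factors are not counted); for 204 single genes and list medians the figures were 1989, 854 and 23. Among counts of genes, free RNA against cells gave 154 higher in control and 138 in sonKD without mitochondrial and ribosomal protein genes in the totals, and with TMM factors 1149 higher and 763 lower in control and 1264 and 825 in sonKD, since all ratios shift together. At a mean of at least 50 CPM, which left 2610 genes in place of 5057, 634 and 703 were lower. With no filter on the mean, which left 23732 genes, 285 and 243 were higher and 8167 and 8851 lower. After subtraction of the median of the same decile of gene span, an alternative chosen after seeing the data, 323 and 391 were higher and 326 and 448 lower, and Esrrb turned to 0.24 and 0.36. For sonKD against control in free RNA, TMM factors gave 30 higher and 22 lower with Son at -1.25, totals without mitochondrial and ribosomal protein genes 37 lower, 50 CPM 9 higher and 16 lower, and no filter 313 and 1015. For the difference of free and cell ratios these were 1 higher (Zbtb20) and 1 lower (Neat1) with TMM factors, 1 lower at 50 CPM, and 405 higher and 788 lower with no filter, where genes of few UMIs enter. The distance between percentiles was then 1.74 in free RNA and 1.45 in cells. The mitochondrial share of free RNA was 0.936% in control and 0.878% in sonKD among barcodes with at most 10% of it, and 0.966% and 0.936% as a mean over barcodes. Barcodes from 100 to under 200 UMIs held 148710 control and 185317 sonKD UMIs in all, so counting error was larger. There, of 5076 genes, 148 and 87 were higher than in cells, and 187 were higher and 516 lower in sonKD. The difference of ratios called 183 higher and 367 lower, the distance was 2.22, Son was at -1.32, and the mitochondrial share was 1.03% and 1.05%. Barcodes of 10 to 99 UMIs held 142332 and 78600 UMIs. There, of 5703 genes, 140 and 353 were higher and 394 and 306 lower than in cells. In sonKD 363 were higher and 325 lower, the difference of ratios called 380 and 208, and the distance was 2.32. Their mitochondrial share was 6.38% and 6.53%, with list medians of 0.58 and 0.50 (mt-Atp6 1.09 and 0.97, mt-Nd1 0.34 and 0.069, mt-Nd3 1.01 and 0.41). Further reversals against cells in these barcodes were Arid1b 0.40, Malat1 0.16 and Neat1 0.54 in control, and Neat1 0.11, Son 0.27, Esrrb 0.18 and Lamc1 0.38 in sonKD. Reversals between sonKD and control there were Son 0.0087 (18 and 10 UMIs), Bud23 0.12, Idh2 0.63, Mettl26 and Rcor2 0.44, Rnaseh2c 0.034 and Rps2 -0.84. The cause of the differences of these barcodes was not tested.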

Other observations

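Barcodes emptier than the near-empty ones differed from free RNA in the genes counted there. In the barcodes of 1 to 9 UMIs, 1060879 in control and 1004417 in sonKD, Neat1 was at 134 and 226 CPM, against 19.9 and 20.7 CPM in free RNA and 87.2 and 224 CPM in cells. Son was at 115 and 68.7 CPM there, against 77.1 and 27.9 CPM in free RNA, and Gm42418 at 1943 and 1710 CPM, between its cell and free values. The mitochondrial share was 11.7% and 12.4%, above both.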
